A study of Homo sapiens with 15 samples.

Results

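The interferon-stimulated genes followed here were 38 protein-coding genes, named in a list by symbol and found through their Ensembl identifiers (version dropped) among the 60649 genes of the count table. They were measured by polyA RNA sequencing in K562, an established erythroid-like human leukaemia line that carries the BCR-ABL fusion. The cells were either untreated or exposed for 24 h to martinostat, which blocks histone deacetylases (HDACs), at 0.15, 0.25, 0.5 or 1 µM, with 3 independent biological replicates in each of the 5 groups. All libraries came from this 1 cell line, cultured in the same serum-containing medium. The comparison asked whether HDAC inhibition switched on an interferon-like set of genes, and at which dose.

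Interferons are secreted proteins that bind receptors on the cell surface and, through the kinases JAK1, TYK2 and JAK2, activate transcription factors. A complex that holds STAT2 and IRF9 binds the interferon-stimulated response element (ISRE) in front of its target genes, and the gamma-activated site (GAS) is the element of type II interferon responses. The target genes code for sensors of viral RNA, enzymes that degrade RNA or stop translation, membrane proteins that block viral entry, and regulators of the response itself. HDACs remove acetyl groups from histones and other proteins and are known both as repressors of transcription and as cofactors of interferon-driven transcription.

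The ISRE letters stood in front of members that rose, that fell and that were not called. A promoter window of 250 bases before and 50 bases after the RefSeq start (GRCh38.p14) was found for 29 members, and 19 of these (65.5%) held the ISRE core on either strand, which was searched as GAAA, 2 bases of any kind and GAAA, against 996 of 27305 promoters of all genes (3.65%). The shorter GAAANNGAA, which lies within every match of the longer one, was held by 69.0% of member windows and 8.29% of all windows, and the GAS letters TTCNNNGAA by 27.6% and 7.88%. The 170 bases upstream of the start are shown for 5 members: IFI6 and IFIT5, which rose at each dose, IFIT3 and IFITM1, which fell at each dose, and ISG15, which edgeR did not call at any dose. Capitals mark each whole match of this core or of its reverse complement, read 5′ to 3′ on the strand of the gene. The windows lie at chr1:27672193-27672362 (minus strand) for IFI6, chr10:89414398-89414567 (plus) for IFIT5, chr10:89327827-89327996 (plus) for IFIT3, chr11:313870-314039 (plus) for IFITM1 and chr1:1013327-1013496 (plus) for ISG15.
IFI6: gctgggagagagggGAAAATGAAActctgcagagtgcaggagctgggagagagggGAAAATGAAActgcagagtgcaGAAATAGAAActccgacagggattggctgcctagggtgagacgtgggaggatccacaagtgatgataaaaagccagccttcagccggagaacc
IFIT5: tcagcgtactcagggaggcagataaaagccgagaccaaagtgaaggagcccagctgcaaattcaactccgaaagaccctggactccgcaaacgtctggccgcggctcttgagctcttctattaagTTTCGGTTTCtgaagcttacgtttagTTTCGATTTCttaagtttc
IFIT3: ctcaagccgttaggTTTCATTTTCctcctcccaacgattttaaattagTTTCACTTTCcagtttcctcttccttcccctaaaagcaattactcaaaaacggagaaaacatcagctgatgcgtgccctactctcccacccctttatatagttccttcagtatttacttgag
IFITM1: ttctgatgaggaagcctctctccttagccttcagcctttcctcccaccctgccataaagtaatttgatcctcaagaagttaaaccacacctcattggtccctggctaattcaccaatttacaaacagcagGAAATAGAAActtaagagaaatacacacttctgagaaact
ISG15: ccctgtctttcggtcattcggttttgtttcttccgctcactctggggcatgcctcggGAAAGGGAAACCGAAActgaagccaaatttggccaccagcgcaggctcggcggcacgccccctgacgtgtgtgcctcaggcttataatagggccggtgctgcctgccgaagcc

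In these windows IFI6 held 3 matches, beginning 156, 115 and 93 bases before the start. IFIT5 also held 3 and IFITM1 held 2, and in both the last match crossed the start and is not capitalised. The 2 matches of ISG15 overlapped each other. Among members with a window, the longer motif was present in 8 of 11 called higher and 4 of 4 called lower at 0.15 µM, and in 7 of 8 called higher and 6 of 12 called lower at 1 µM. A match is only a run of letters, and binding was not measured.

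Library totals ran from 23755510 to 32805574 counts, and the members took between 0.0457% and 0.0924% of them. The untreated libraries stood apart from the treated ones on the first principal component of log expression. The third replicates at 0.25 and 0.5 µM stood apart from all others on the third component, at 70.1 and 75.4 against 16.0 for the next library. Of the erythroid markers HBG1, HBG2, HBE1, GATA1 and TAL1, none was called at 0.15 µM. At 1 µM GATA1 (log2 fold change -4.12), TAL1 (-2.28) and HBG2 (-0.99) were lower and HBE1 (1.502) was higher by edgeR, and HBG1 was not called. Neither HBE1 nor HBG2 differed among the 5 groups (edgeR adjusted p = 0.118 and 0.0666). On the same strand 90.01% of HBE1 and 55.65% of HBG2 exon bases overlap other genes, so their counts may miss or share reads. GATA1, an erythroid transcription factor, had 323 to 335 CPM (counts scaled to library size) untreated and 15.3 to 20.8 at 1 µM. In bulk RNA, fewer expressing cells and less RNA per cell cannot be told apart.

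At the start the members differed widely in expression. Per length (RPKM, which is CPM divided by exon length in kilobases, computed here), IFITM1 was highest in untreated cells at 193 ± 9.50 (SD, n = 3 here and below), followed by BST2 at 114 ± 7.58 and ISG15 at 26.9 ± 2.07. CMPK2 (22.9 ± 0.737), IFITM3 (14.6 ± 0.426), IFITM2 (12.8 ± 0.704), EIF2AK2 (9.49 ± 0.347), IFI35 (6.39 ± 0.177) and RSAD2 (4.94 ± 0.651) came next, and within this order the ranges given by the SD of neighbours did not overlap. In all, 15 members lay above 1 RPKM and 13 below 0.1 RPKM. No read was counted in any untreated library for 5 members (OAS2, MX1, OASL, IFI44 and XAF1), and 26 members had at least 10 counts in every untreated library.

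After the filter on low counts, 35 members were tested, and IFI44, IFI44L and XAF1 were not. Some of the 35 passed the filter only through the groups in which they were high, so counts and medians over them describe the tested members only. Of the 35, 31 differed among the 5 groups (edgeR's quasi-likelihood test, adjusted p under 0.05), where 73.6% of all 23711 genes tested did so. At 0.15 µM 17 members were higher and 5 lower than in untreated cells, or 48.6% and 14.3% of those tested, beside 31.9% and 19.4% of all genes. At 0.25 µM 19 were higher and 7 lower, beside 37.4% and 24.8% of all genes. At 0.5 µM the members split evenly, with 14 higher and 14 lower, beside 39.4% and 27.6%, and at 1 µM the counts were again 14 and 14, beside 38.8% and 27.5%. The median log2 fold change of the tested members was 0.90 at 0.15 µM and 0.94 at 0.25 µM, where all genes had medians of 0.28 and 0.32. At 0.5 and 1 µM it was 0.32 and 0.37, and that of all genes 0.34 and 0.32. Over the 23 members with at least 10 counts in every library it was 0.56 at 0.15 µM and 0.57 at 0.25 µM (all genes 0.04 and 0.05). Over the same 23 it was -0.10 at 0.5 µM and -0.43 at 1 µM (all genes 0.07 and 0.05). When only the compared libraries were fitted, it was 0.55 at 0.15 µM, 0.80 at 0.25 µM and -0.05 at 0.5 µM. All genes had 0.12, 0.21 and 0.22 there. Without untreated replicate 3 the member median was 0.14 at 1 µM.

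**Figure D1:**
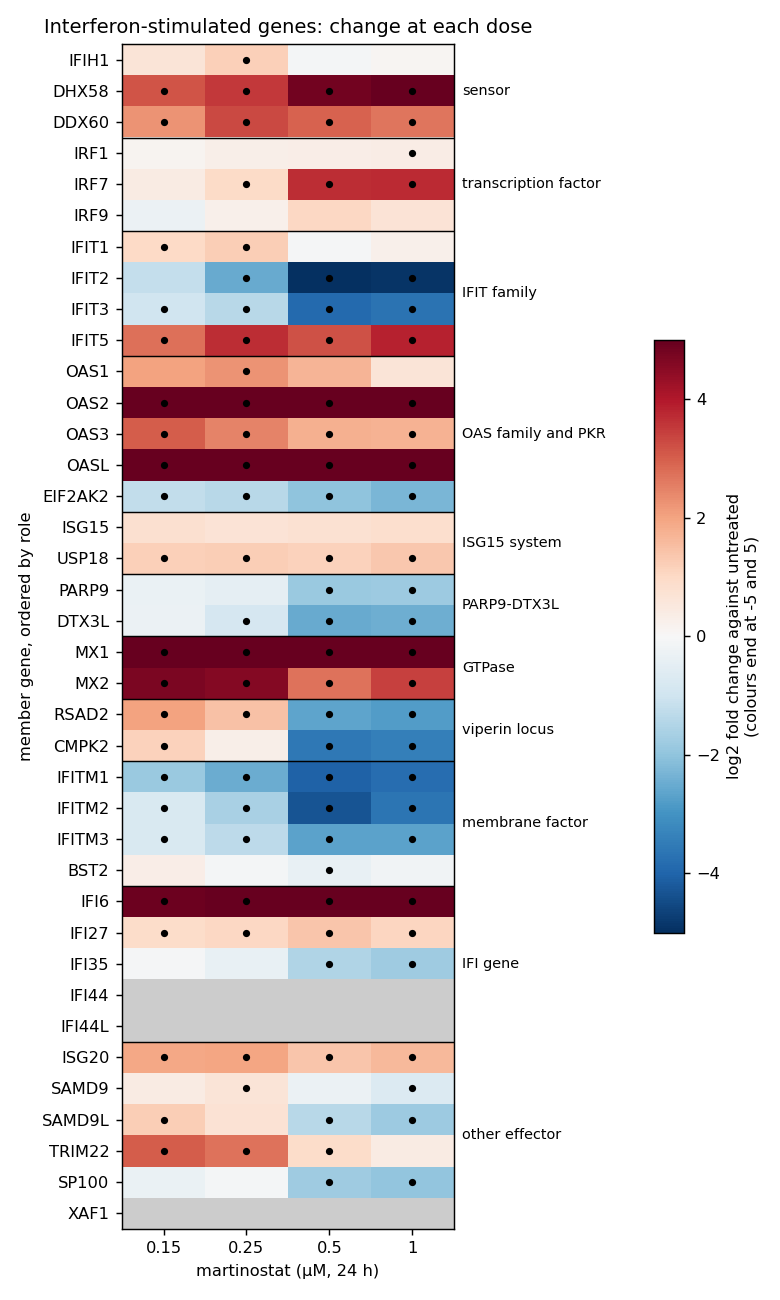
Log2 fold change of each member against untreated cells at the 4 doses of martinostat (colours end at -5 and 5; a dot marks an edgeR adjusted p under 0.05; grey, not tested), with the members grouped by role. Rows of 1 colour across the 4 doses include IFI6 and DHX58 (higher) and IFITM1 and EIF2AK2 (lower). In contrast, RSAD2, CMPK2 and SAMD9L turned from higher at 0.15 µM to lower at 0.5 and 1 µM. The values of OAS2, OASL and MX1 are fitted against untreated libraries without reads.

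The members thus fell into sets with different dose courses. At all 4 doses 12 of the 35 tested members were higher, beside 24.6% of all genes: DHX58, DDX60, IFIT5, OAS2, OAS3, OASL, USP18, MX1, MX2, IFI6, IFI27 and ISG20. At all 4 doses 5 members were lower: IFIT3, EIF2AK2, IFITM1, IFITM2 and IFITM3. These are 14.3% of the tested members, close to the 15.1% of all genes that were lower at all 4 doses. Another 3 members, RSAD2, CMPK2 and SAMD9L, were higher at 0.15 µM and lower at 1 µM. The share of all genes with such opposite calls was not counted, so whether this is unusual is not known.

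Of the steps between neighbouring doses, that from 0.25 to 0.5 µM had the most calls among members. Of the 35, 19 fell and 3 rose across it, beside 16% and 14.4% of all genes, and their median log2 change was -0.70 where that of all genes was 0.02. The 3 that rose were IRF7, DHX58 and IFI6, of which the first held in all alternatives. From 0.15 to 0.25 µM 1 member rose (OASL, by 1.64) and 3 fell (OAS3, CMPK2 and IFITM2), beside 4.96% and 7.32% of all genes. The call of OASL was lost without replicate 2 (1.44) or 3 (1.55) at 0.15 µM or replicate 1 at 0.25 µM (1.27), that of IFITM2 (-0.86) without replicate 3 at 0.15 µM (-0.68), and that of OAS3 (-0.55) under every other scaling (-0.37 to -0.45) and without untreated replicate 3, any 1 library at 0.15 µM, replicate 1 or 2 at 0.25 µM or replicate 1 at 1 µM (-0.44 to -0.60). From 0.5 to 1 µM no member was called by edgeR, DESeq2 or limma-voom, beside 0% of all genes, and 2 members had an unadjusted edgeR p under 0.05, as did 1.57% of all genes. Over the whole range from 0.15 to 1 µM 17 members fell and 4 rose, beside 23.1% and 21.5% of all genes.

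**Figure D2:**
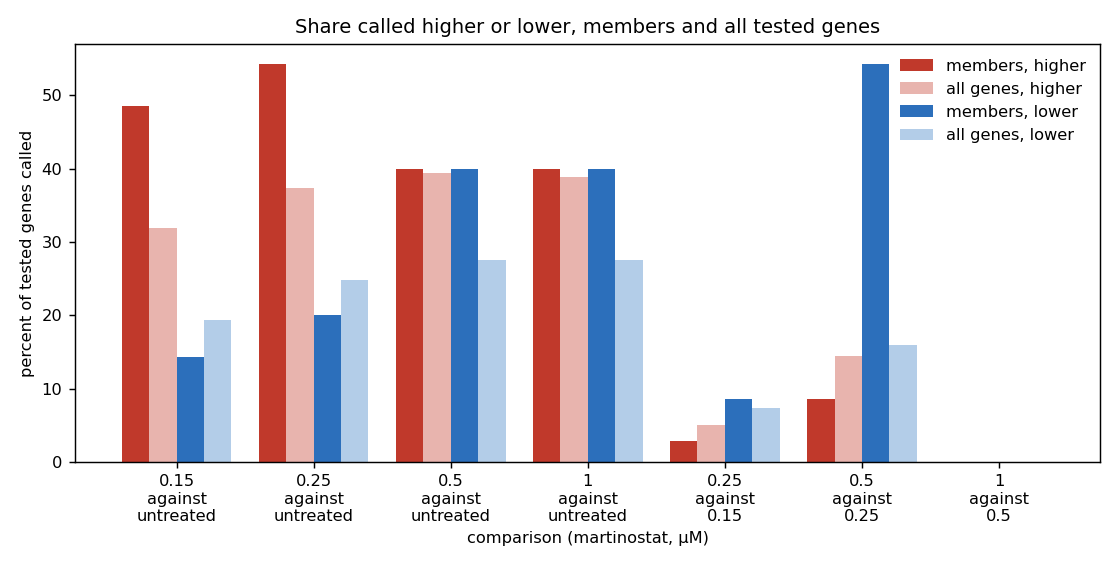
Percent of the 35 tested members (dark bars) and of all 23711 tested genes (pale bars) that edgeR called higher (red) or lower (blue) in each comparison of martinostat doses. The members stand furthest from all genes at the step from 0.25 to 0.5 µM, where 54.3% of members and 16% of all genes were lower.

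RSAD2 (viperin, an enzyme that makes a chain-terminating nucleotide against viruses) and its neighbour CMPK2 (a mitochondrial nucleotide kinase) changed direction with the dose. The genes lie head to head at chr2:6865557-6898239 and chr2:6840570-6866635 (hg38), with annotated starts 1078 bases apart. RSAD2 had 24.05, 31.4 and 28.4 CPM in the untreated libraries, 115, 109 and 111 at 0.15 µM, and 64.6, 67.3 and 102 at 0.25 µM. At 0.5 µM it had 3.00, 2.97 and 7.29 CPM and at 1 µM 3.76, 3.70 and 4.64. All 6 libraries of the low doses lay above the untreated ones and all 6 of the high doses below them. RSAD2 had a log2 fold change of 2.00 ± 0.26 (SE) at 0.15 µM (edgeR adjusted p = 8.42e-06) and -2.79 ± 0.28 at 1 µM (edgeR adjusted p = 1.73e-07). Between these doses it fell by 4.79 on the log2 scale, or 27.7-fold (edgeR adjusted p = 2.3e-09).

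CMPK2 was abundant from the start, at 96.8, 103 and 102 CPM untreated, and rose to 256, 240 and 170 at 0.15 µM. It was at 106, 133 and 127 CPM at 0.25 µM, 6.93, 8.79 and 9.52 at 0.5 µM and 8.41, 8.98 and 10.6 at 1 µM. The untreated range was left upwards only at the low doses, although edgeR did not call the change at 0.25 µM. The high-dose libraries all lay below 11 CPM. Its log2 fold change was 1.14 ± 0.16 at 0.15 µM (edgeR adjusted p = 1.17e-05) and -3.43 ± 0.18 at 1 µM (edgeR adjusted p = 8.77e-12), with a fall of 4.57 between them. Exons of the pair overlap on opposite strands over 6.20% of RSAD2 and 8.00% of CMPK2, and the strand setting of the counting is not given in the sources used here.

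SAMD9L, a growth-restraining antiviral protein, followed the same course at a lower level. It had 1.68, 1.81 and 1.72 CPM untreated and 4.82, 4.73 and 2.61 at 0.15 µM, then 1.39, 2.47 and 4.71 at 0.25 µM, 0.795, 0.502 and 0.680 at 0.5 µM and 0.355, 0.483 and 0.628 at 1 µM. The 0.15 µM libraries lay above and the high-dose libraries below the untreated range, while those at 0.25 µM straddled it. Its log2 fold change was 1.22 ± 0.38 at 0.15 µM (edgeR adjusted p = 0.0122) and -1.82 ± 0.43 at 1 µM (edgeR adjusted p = 0.00109), and the fall between them was 3.04. Without replicate 1 at 0.15 µM the first of these was 1.08 and was no longer called. Its paralogue SAMD9, 30.4 kb away on chromosome 7, averaged 8.62 ± 0.768 CPM untreated, 11.3 ± 3.50 at 0.15 µM, 13.6 ± 5.08 at 0.25 µM and 5.31 ± 1.25 at 1 µM. Against untreated cells edgeR called SAMD9 higher at 0.25 µM and lower at 1 µM, and did not call it at 0.15 or 0.5 µM. SAMD9 was lower at 1 than at 0.15 µM by 1.09 on the log2 scale (edgeR adjusted p = 0.00416).

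TRIM22, an antiviral ubiquitin ligase, rose steeply at the low doses and came back. Its mean went from 0.664 ± 0.298 CPM to 5.46 ± 0.310 at 0.15 µM and 4.31 ± 1.35 at 0.25 µM, and then to 1.24 ± 0.260 and 0.883 ± 0.304. All low-dose libraries lay above the untreated ones, and at 1 µM the groups overlapped. TRIM22 changed by a log2 value of 3.04 ± 0.36 at 0.15 µM (edgeR adjusted p = 1.31e-06), and the value at 1 µM was below that at 0.15 µM by 2.62 (edgeR adjusted p = 5.78e-06).

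**Figure D3:**
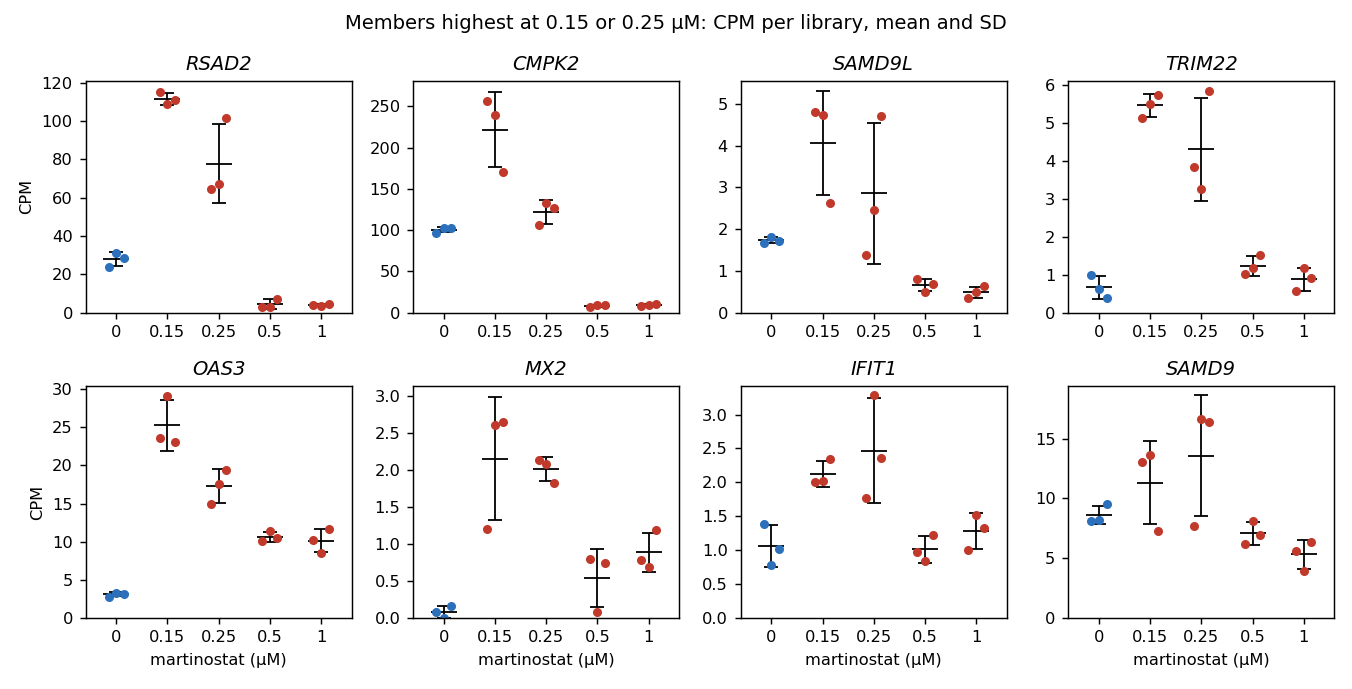
CPM of 8 members against the dose of martinostat in µM; points are the 3 libraries of each group (blue, untreated; red, treated), and the bar and whiskers give the mean and SD. In RSAD2 and CMPK2 the libraries at 0.5 and 1 µM lie far below the untreated ones, whereas in OAS3 and MX2 the high-dose means stay above them.

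Among the sensors of viral RNA, DHX58 (LGP2, a regulator of the RIG-I-like receptors) was higher at each dose and higher again at 0.5 than at 0.25 µM. The untreated libraries had 0.164, 0 and 0.587 CPM, those at 0.15 µM 2.92, 1.41 and 2.44, and those at 0.25 µM 3.05, 1.86 and 3.98. At 0.5 µM the values were 6.71, 6.82 and 8.24 and at 1 µM 9.33, 9.74 and 7.74. Untreated, low-dose and high-dose libraries formed bands that did not overlap. Against untreated cells it was higher on the log2 scale by 3.15 ± 0.56 at 0.15 µM and by 5.13 ± 0.55 at 1 µM (edgeR adjusted p = 2.81e-07), and the rise between these doses was 1.98 (edgeR adjusted p = 0.00114). The step of 1.28 from 0.25 to 0.5 µM was lost without replicate 1 (1.30) or 2 (1.04) at 0.25 µM or replicate 2 at 0.5 µM (1.33). DDX60, a helicase that assists the same receptors, was higher at each dose, by 3.29 ± 0.65 at 0.25 µM and 2.68 ± 0.66 at 1 µM, from a base of 9 counts over the untreated libraries. Its call at 0.15 µM (2.26) was lost without replicate 2 of that dose (1.79) and under limma-voom (1.92). IFIH1 (MDA5, a sensor of long double-stranded RNA) averaged 0.873 ± 0.180 CPM untreated, 1.99 ± 0.463 at 0.25 µM and 0.923 ± 0.223 at 1 µM. Its call at 0.25 µM (1.19) was lost when untreated replicate 2 (1.17), untreated replicate 3 (1.05) or replicate 3 at 0.25 µM (1.02) was left out.

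Of the transcription factors, IRF7, which drives interferon production, showed the sharpest step. It had 6.91, 4.71 and 5.24 CPM untreated, 7.66, 5.65 and 8.81 at 0.15 µM and 13.3, 13.0 and 6.18 at 0.25 µM. At 0.5 µM it had 103, 76.4 and 40.4 CPM and at 1 µM 62.8, 106 and 55.7. The 6 high-dose libraries all lay above the 9 others, although the third replicate at 0.5 µM was the lowest of them. The log2 fold change was 3.73 ± 0.40 at 1 µM (edgeR adjusted p = 9.74e-07), and the step from 0.25 to 0.5 µM was 2.76 ± 0.38 (edgeR adjusted p = 6.2e-05). Without the third replicates at 0.25 and 0.5 µM, that step was 2.78. IRF9, the DNA-binding partner of STAT2, had 0.809 ± 0.537 CPM untreated and 1.30 ± 0.497 at 1 µM and was not called at any dose. Other genes overlap 23.9% of IRF9 exon bases on the same strand and 8.05% on the opposite strand. IRF1 moved from 16.4 ± 1.01 to 21.2 ± 3.30 CPM at 1 µM, a log2 fold change of 0.37 at the threshold of the test. That call was lost in 13 of 25 alternatives, among them without any 1 of the untreated libraries (0.31 to 0.39) or without replicate 2 (0.24) or 3 (0.40) at 1 µM.

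The 4 IFIT genes, whose products bind viral RNA and block its translation, lie within 140 kb on chromosome 10 and moved apart. IFIT2 had 1.88, 1.58 and 2.11 CPM untreated, 0.844, 0.706 and 0.895 at 0.15 µM and 0.237, 0.286 and 0.426 at 0.25 µM. It had 0, 0 and 0.109 CPM at 0.5 µM and 0.0355, 0.138 and 0 at 1 µM. The ranges did not overlap up to 0.5 µM, but the change at 0.15 µM was not called (log2 -1.19, edgeR adjusted p = 0.076). The log2 fold change at 1 µM was -4.90 ± 0.73 (edgeR adjusted p = 8.95e-06). IFIT3 had 2.98, 5.41 and 5.17 CPM untreated, 1.34, 1.80 and 3.61 at 0.15 µM, 2.17, 1.47 and 1.502 at 0.25 µM, 0.133, 0.335 and 0.408 at 0.5 µM and 0.461, 0.173 and 0.418 at 1 µM. The untreated range was overlapped at 0.15 µM only. The log2 fold change at 1 µM was -3.67 ± 0.47 (edgeR adjusted p = 1.43e-06). At 0.15 µM it was -1.0, and that call was lost without untreated replicate 2 (-0.85) or 3 (-0.90), replicate 1 (-0.74) or 2 (-0.87) at 0.15 µM, or replicate 3 at 1 µM (-1.0).

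IFIT5 went the other way. It had 3 counts over the untreated libraries and 25, 55, 34 and 54 at the rising doses, which at 1 µM is a ratio of 15.9 with a 95% counting interval of 5.16 to 79.6. IFIT1 was called higher at the low doses, from 1.06 ± 0.311 CPM to 2.12 ± 0.192 at 0.15 µM and 2.47 ± 0.771 at 0.25 µM, and was at 1.28 ± 0.266 CPM at 1 µM. Its log2 fold change at 0.25 µM was 1.22 ± 0.33 (edgeR adjusted p = 0.00371), its call at 0.15 µM (1.0) was lost without untreated replicate 2 (0.82) or 3 (0.97) or replicate 3 at 0.15 µM (0.92), and the drop of 1.27 from 0.25 to 0.5 µM was called as well (edgeR adjusted p = 0.00631).

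The OAS family was low or undetected in untreated cells. OAS1, OAS2 and OAS3 make the oligoadenylates that activate the RNA-cutting enzyme RNase L, whereas the related OASL lacks that activity. OASL had 0 counts in the 3 untreated libraries and 1.48, 0.706 and 0.826 CPM at 0.15 µM, 4.54, 2.36 and 2.50 at 0.25 µM, 4.81, 3.31 and 2.12 at 0.5 µM and 3.02, 3.80 and 3.24 at 1 µM. All treated libraries exceeded the untreated ones. Against a limit of 3 counts over the untreated group it was at least 25.3-fold higher at 0.15 µM and at least 84.9-fold higher at 1 µM. OAS2, also at 0 untreated, was at least 8.25-fold higher at 0.15 µM, 31.6-fold at 0.5 µM and 10.9-fold at 1 µM. OAS3 peaked at the lowest dose, at 25.3 ± 3.33 CPM from 3.06 ± 0.258 untreated, and declined to 10.1 ± 1.54 at 1 µM. OAS3 was still higher at 1 µM by 1.72 ± 0.18 (edgeR adjusted p = 1.07e-07), and the fall of 1.32 from 0.15 to 1 µM was called too (edgeR adjusted p = 4.49e-06). OAS1 had between 6 and 40 counts per group. Its call at 0.25 µM (2.25) was lost without untreated replicate 2 (2.22), untreated replicate 3 (1.67) or replicate 3 at 0.25 µM (1.85).

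EIF2AK2 codes for PKR, the kinase that halts translation upon double-stranded RNA, and fell throughout. It had 106, 100.4 and 108 CPM untreated, 45.3, 48.6 and 39.4 at 0.15 µM and 34.5, 39.6 and 44.8 at 0.25 µM. At 0.5 µM the values were 23.9, 23.3 and 29.9 CPM and at 1 µM 20.6, 19.1 and 24.4. No treated library came near the untreated range, and the high-dose libraries all lay below the low-dose ones. The log2 fold change was -1.24 ± 0.15 at 0.15 µM and -2.29 ± 0.15 at 1 µM (edgeR adjusted p = 1.97e-10).

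ISG15, a ubiquitin-like modifier, had 24.0, 21.3 and 24.7 CPM untreated, 43.9, 30.2 and 46.4 at 0.15 µM and 49.7, 42.4 and 19.1 at 0.25 µM. At 0.5 µM it had 61.0, 37.8 and 19.1 CPM and at 1 µM 35.8, 54.5 and 34.2. Every treated library exceeded the untreated ones, except the third replicates at 0.25 and 0.5 µM, which lay below them. The main edgeR fit did not call ISG15 at any dose, with a log2 fold change of 0.83 ± 0.39 at 1 µM (edgeR adjusted p = 0.0745). The value at 1 µM was called in 9 of 25 alternatives, among them DESeq2 (0.89), library totals (1.18), TMM scaling on genes above 10 CPM (1.2135), at least 10 counts in each library (1.11) and the compared libraries alone (0.90). It was also called without replicate 3 at 0.25 µM (0.88) and without replicate 1 or 3 at 0.5 µM (both 0.83), and the value at 0.15 µM was called in 5 alternatives (0.79 to 1.14). With both replicate 3 libraries left out of the fit it was 0.79 at 0.15 µM (edgeR adjusted p = 0.00836) and 0.88 at 1 µM (edgeR adjusted p = 0.00309), both called. USP18, the protease that removes ISG15 and restrains the type I receptor, had 1.19, 1.58 and 1.14 CPM untreated and 3.02, 2.58 and 3.30 at 0.15 µM. At 1 µM it had 3.30, 2.35 and 4.22 CPM, and all treated libraries lay above the untreated ones. Its log2 fold change was 1.19 ± 0.28 at 0.15 µM and 1.33 ± 0.28 at 1 µM (edgeR adjusted p = 0.000359). USP18 has a near-identical copy elsewhere on chromosome 22, so its reads may be shared.

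PARP9 and DTX3L, partners in a ubiquitin ligase that acts on histones, start 239 bases apart on opposite strands of chromosome 3 and fell together at the high doses. DTX3L had 16.5, 13.6 and 15.5 CPM untreated, 11.6, 13.7 and 11.5 at 0.15 µM, 8.47, 7.66 and 9.14 at 0.25 µM, 3.09, 1.59 and 3.18 at 0.5 µM and 2.73, 2.28 and 3.45 at 1 µM. The 0.15 µM libraries overlapped the untreated ones, and all later groups lay below them. At 1 µM the log2 fold change was -2.43 ± 0.24 for DTX3L (edgeR adjusted p = 4.42e-08) and -1.82 ± 0.31 for PARP9 (edgeR adjusted p = 4.6e-05).

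The dynamin-like GTPases MX1 and MX2, which trap viral nucleocapsids, were almost absent at the start. MX1 had 0 counts in the untreated libraries, 21 over the 0.15 µM group and 56 over the 1 µM group, so it was at least 6.19-fold and 16.5-fold higher. MX2 had 0.0818, 0 and 0.156 CPM untreated and 1.20, 2.61 and 2.65 at 0.15 µM, and then 2.13, 2.08 and 1.83 at 0.25 µM, 0.795, 0.0837 and 0.734 at 0.5 µM and 0.781, 0.691 and 1.19 at 1 µM. Only replicate 2 at 0.5 µM lay within the untreated range. MX2 was higher by 4.69 ± 0.72 at 0.15 µM and by 3.41 ± 0.75 at 1 µM (edgeR adjusted p = 0.000528). The drop from 0.25 to 0.5 µM (-1.87) was lost without that replicate (-1.40).

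The IFITM proteins, which hinder viral fusion at membranes, fell as a family. IFITM1, the most abundant member untreated, had 304, 322 and 336 CPM there, 84.3, 84.5 and 95.7 at 0.15 µM and 71.6, 66.4 and 36.4 at 0.25 µM. At 0.5 µM it had 24.6, 24.1 and 9.98 CPM and at 1 µM 19.95, 26.6 and 23.0. Every treated library was below 100 CPM, and the high-dose libraries lay below all others. The log2 fold change was -1.86 ± 0.28 at 0.15 µM (edgeR adjusted p = 4.52e-05) and -3.79 ± 0.31 at 1 µM (edgeR adjusted p = 1.61e-08), a 13.8-fold fall. IFITM2 went from 20.6 ± 1.13 CPM to 12.1 ± 1.90 at 0.15 µM and 1.64 ± 0.167 at 1 µM, and IFITM3 from 41.4 ± 1.212 to 24.2 ± 3.32 and 6.40 ± 2.05. At 1 µM their log2 fold changes were -3.64 ± 0.24 and -2.69 ± 0.20. At 0.15 µM both were -0.77 and called, but under scaling by library totals they were -0.41 and -0.42 and not called. For IFITM2 the call also ended under TMM scaling on genes above 10 CPM (-0.51). These genes are close copies within 26 kb of chromosome 11, so reads may be shared among them. Exon bases of IFITM1 also overlap other genes, 21.1% on the same strand and 10.6% on the opposite strand. For IFITM3 16.3% do so, on the opposite strand only.

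BST2 (tetherin, which holds budding virions at the cell surface) behaved differently from the other membrane factors. It had 134, 125 and 118 CPM untreated, 127, 134 and 208 at 0.15 µM, 131, 111 and 114 at 0.25 µM, 94.2, 99.2 and 94.5 at 0.5 µM and 107, 113 and 113 at 1 µM. The ranges lay close together, apart from replicate 3 at 0.15 µM. Its call at 0.5 µM (-0.39, edgeR adjusted p = 0.039) ended under every other scaling tried, with values of -0.31 to 0.02. It also ended when untreated replicate 1 (-0.34) or 2 (-0.40), replicate 3 at 0.25 µM (-0.34) or any 1 of the 0.5 µM libraries (-0.38 to -0.42) was left out.

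IFI6, a mitochondrial and endoplasmic reticulum protein that counters apoptosis, rose more than any other member with counts in every untreated library. It had 1.92, 0.927 and 1.10 CPM untreated, 40.3, 33.8 and 43.8 at 0.15 µM and 87.9, 73.8 and 52.7 at 0.25 µM. At 0.5 µM it had 187, 119 and 89.1 CPM and at 1 µM 117, 229 and 110. The groups at 0, 0.15 and 0.25 µM did not overlap, and the high-dose libraries lay above them all. The log2 fold change was 4.90 ± 0.40 at 0.15 µM (edgeR adjusted p = 1.25e-07) and 6.85 ± 0.43 at 1 µM (edgeR adjusted p = 1.92e-09), or 29.9-fold and 116-fold. The step of 0.88 from 0.25 to 0.5 µM (edgeR adjusted p = 0.0475) was lost without untreated replicate 2 or 3, without any 1 library at 0.15 µM, without replicate 2 or 3 at 0.25 µM, or without replicate 1 or 2 at 0.5 µM, with values of 0.54 to 0.95. On the same strand 23.1% of its exon bases overlap LINC02574. IFI27, a related gene, went from 1.18 ± 0.537 to 2.52 ± 0.339 CPM at 1 µM, a log2 fold change of 1.09 ± 0.33 (edgeR adjusted p = 0.00765). Its call at 0.15 µM (0.90) was lost without untreated replicate 2 (0.69) or 3 (0.76) or replicate 2 (0.79) or 3 (0.81) at 0.15 µM, and that at 0.25 µM (1.02) without untreated replicate 2 (0.80) or 3 (0.87) or replicate 1 at 0.25 µM (0.86). IFI35, which binds the protein NMI, fell from 12.5 ± 0.347 CPM to 4.50 ± 1.83 at 0.5 µM and 3.66 ± 1.18 at 1 µM, by 1.77 ± 0.31 on the log2 scale at the highest dose (edgeR adjusted p = 6.08e-05).

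**Figure D4:**
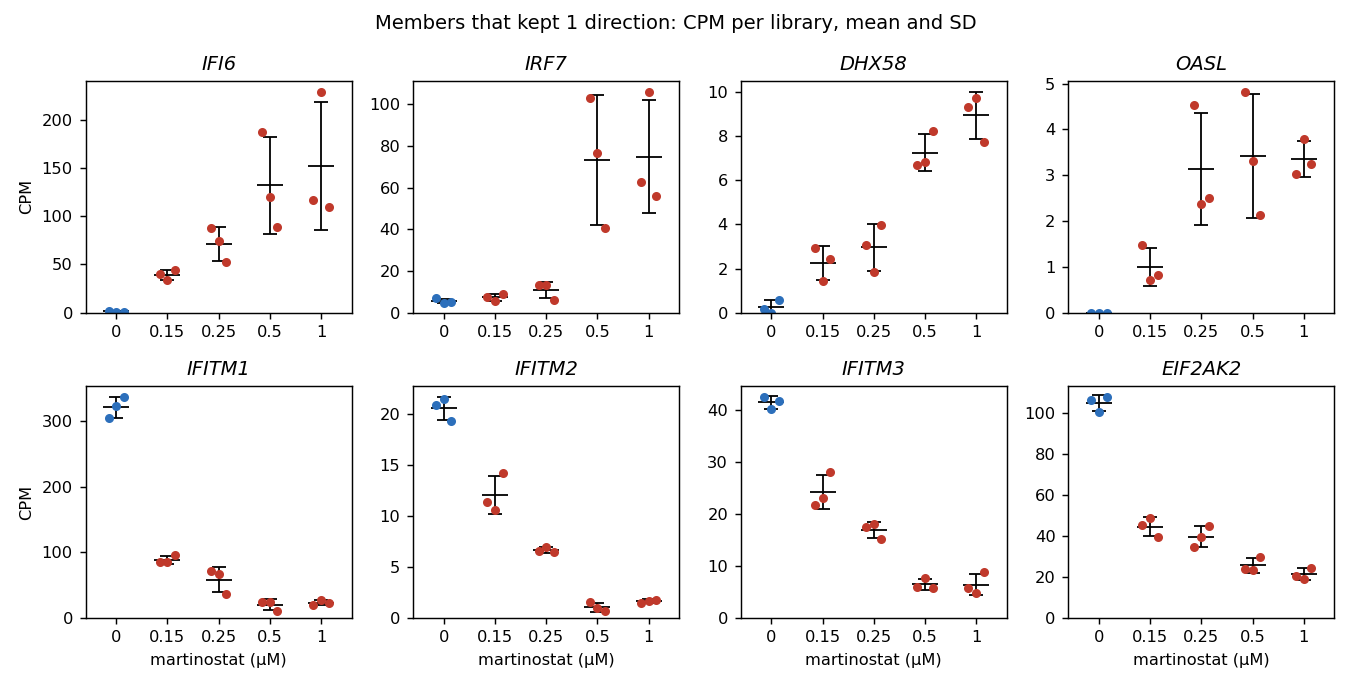
CPM of 8 members against the dose of martinostat in µM; points are the 3 libraries of each group (blue, untreated; red, treated), and the bar and whiskers give the mean and SD. IFI6, IRF7, DHX58 and OASL rose, whereas the IFITM genes and EIF2AK2 fell at each dose against untreated cells.

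ISG20, an RNA exonuclease, was higher at each dose, from 0.627 ± 0.300 CPM untreated to 2.51 ± 0.624 at 0.25 µM and 1.96 ± 0.194 at 1 µM (log2 fold change 1.63 ± 0.35, edgeR adjusted p = 0.000442). SP100, a component of nuclear bodies that restrict viral genomes, had 22.7, 25.4 and 26.6 CPM untreated, 19.3, 20.7 and 19.4 at 0.15 µM and 20.03, 20.8 and 29.7 at 0.25 µM. At 0.5 µM it had 6.40, 5.61 and 9.84 CPM and at 1 µM 5.68, 6.39 and 7.04, so that all high-dose libraries lay below the rest. Its log2 fold change was -1.97 ± 0.21 at 1 µM (edgeR adjusted p = 1.08e-07). The 3 members outside the test had few reads. IFI44 had 6 counts, all in replicate 1 at 0.25 µM, and IFI44L had 2 counts untreated and at most 12 in a dose group. XAF1 had 0 untreated and at most 13, and 38.3% of its exon bases overlap a gene on the opposite strand.

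The interferon genes themselves had few or no counts. A count of 0 cannot tell a silent gene from one that is absent in this line, and whether the line carries these genes was not tested. No read was counted in any of the 15 libraries for IFNB1, IFNW1 or any of the 13 IFNA genes, which at a limit of 3 counts allows up to 0.0395 CPM per gene in the untreated group and 0.0349 at 1 µM (counting error only). IFNG had 6 counts at 0.15 µM and 6 at 0.25 µM and none elsewhere. Of the 22 ligands 2 could be tested, and IFNL4, a type III interferon, was the 1 called higher. It had 0 counts untreated and 8, 18, 70 and 61 over the libraries of the rising doses, and was at least 18.0-fold higher at 1 µM. IFNL4 thus passed the filter on low counts only through treated groups, so a call against untreated cells could only be higher. IFNL1, IFNL2 and IFNL3 had at most 12, 10 and 6 counts in any group. IFNK had 27 counts untreated, 44 at 0.15 µM and 4 at 0.5 µM, where it was lower (log2 fold change -2.78, edgeR adjusted p = 0.013).

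Of the 6 receptor chains, 2 were higher and 2 lower at 1 µM, or 33.3% each, beside 38.8% and 27.5% of all genes. The chains of the type III receptor both rose at each dose, IFNLR1 from 0.970 ± 0.300 to 5.57 ± 0.249 CPM at 1 µM (log2 fold change 2.51 ± 0.26, edgeR adjusted p = 9.21e-08) and IL10RB from 0.711 ± 0.0490 to 2.12 ± 0.229 (1.57 ± 0.32). IFNAR1, a type I receptor chain, fell at each dose, from 79.8 ± 3.15 to 49.1 ± 2.91 CPM at 1 µM. IFNGR2, of the type II receptor, fell from 32.4 ± 3.37 CPM to 17.2 ± 1.65 at 0.25 µM and 6.08 ± 0.780 at 1 µM.

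Of the signalling genes, STAT2 rose from 32.1 ± 4.23 to 62.0 ± 9.85 CPM at 0.15 µM and 122 ± 5.06 at 1 µM. JAK2 fell at each dose, from 31.8 ± 4.76 to 5.96 ± 0.462 CPM at 1 µM, and TYK2 was higher at 1 µM by 0.73 ± 0.14. Of 9 tested genes that induce interferons, 4 were lower at 1 µM (44.4%, beside 27.5% of all genes) and none higher (beside 38.8%). They were the adaptors STING1 (36.5 ± 2.13 to 4.76 ± 1.18 CPM), TICAM1 (33.4 ± 2.08 to 7.68 ± 0.847) and MYD88 (61.2 ± 0.734 to 11.2 ± 1.31) and the kinase IKBKE, which first rose from 14.6 ± 1.43 to 35.9 ± 7.96 CPM at 0.15 µM and then fell to 5.87 ± 0.907. Of 6 inhibitors, 3 (50%) were higher and 1 (16.7%) lower at 1 µM, beside the same shares of all genes. SOCS1, SOCS3 and PTPN6 were higher at each dose, SOCS3 by 3.22 ± 0.18 at 1 µM (edgeR adjusted p = 1.82e-11), and PTPN2 was lower.

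**Figure D5:**
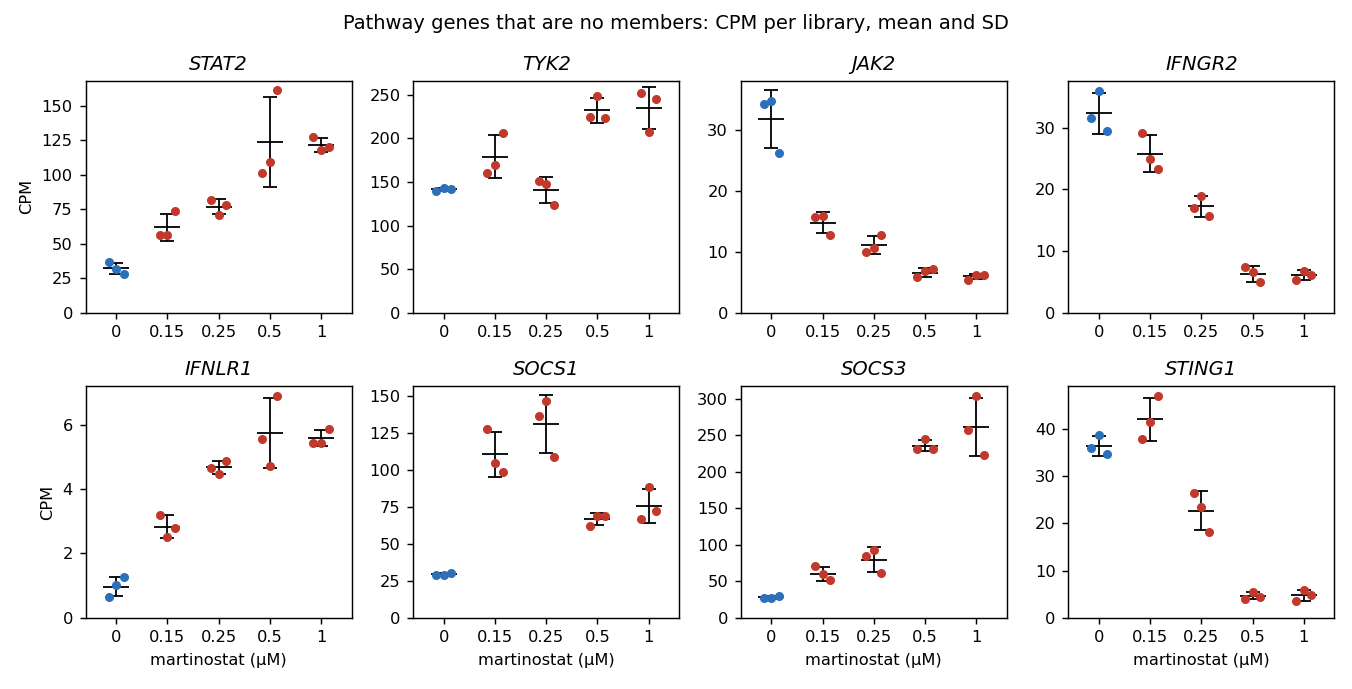
CPM of 8 genes of interferon signalling that are no members against the dose of martinostat in µM; points are the 3 libraries of each group (blue, untreated; red, treated), and the bar and whiskers give the mean and SD. At 0.5 and 1 µM STAT2 lies above and JAK2, IFNGR2 and STING1 lie below their untreated libraries, and the mean of SOCS1 is highest at 0.25 µM.

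A further list of 31 interferon-stimulated genes that are no members, of which 25 were tested, was called in both directions too. At 0.15 µM 10 were higher and 6 lower (40% and 24%, beside 31.9% and 19.4% of all genes), and at 1 µM 7 were higher and 12 lower (28% and 48%, beside 38.8% and 27.5%). HELZ2, a transcriptional coactivator with helicase domains, rose from 3.88 ± 0.463 to 27.3 ± 5.11 CPM at 0.15 µM and 97.8 ± 18.1 at 1 µM. HERC5, the ligase that attaches ISG15, rose from 2.27 ± 0.0947 to 15.4 ± 2.33 CPM at 1 µM, and UBE2L6, its conjugating enzyme, from 9.66 ± 1.42 to 49.8 ± 6.52. APOL1, a trypanolytic apolipoprotein, fell from 64.3 ± 5.00 to 2.65 ± 0.920 CPM and NMI from 53.0 ± 5.00 to 4.29 ± 0.758. EPSTI1 was higher at 0.15 µM (4.21 ± 0.581 from 1.48 ± 0.273 CPM) and lower at 1 µM (0.303 ± 0.145).

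Markers of other cell types also moved with the dose, and their part in these results was not tested. The summed level of 3 monocyte markers (CD14, FCGR3A and CSF1R), all detected in every group, was 0.464 to 0.978 CPM untreated and 23.1 to 31.5 at 1 µM, where CSF1R (log2 fold change 5.80) and CD14 (2.09) were higher and FCGR3A was not tested. That of 3 markers of plasmacytoid dendritic cells (CLEC4C, IL3RA and LILRA4), also all detected, was 0.777 to 0.978 CPM untreated and 11.5 to 15.6 at 1 µM, where IL3RA (4.09) and LILRA4 (5.94) were higher and CLEC4C was not called. The 4 T cell markers (CD3D, CD3E, CD3G and CD2), of which CD2 was at 0 untreated, summed to between 3.55 and 5.07 CPM untreated, 17.0 to 24.2 at 0.15 µM and 2.27 to 4.36 at 1 µM. All 4 were higher at 0.15 µM, and at 1 µM CD3D was lower (-1.03) and CD2 higher. The 3 fibroblast markers (COL1A1, COL1A2 and DCN), all detected, summed to 21.9 to 25.4 CPM untreated and 301 to 486 at 1 µM, and of these COL1A1 was higher (log2 fold change 6.51), COL1A2 was lower (-0.96) and DCN was not called by edgeR.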

How the data were processed

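Total RNA was extracted with TRIzol, polyA RNA was selected and directional libraries were made. Per the labels, the authors used Trim Galore 0.6.10, HISAT2 2.2.1, SAMtools 1.21 and featureCounts 1.5.3 on hg38; the strand setting is not given in the sources used here. The deposited count table holds whole-number counts of reads per gene for 15 libraries (3 per group), and these counts were used as deposited. Deposited FPKM values, which scale to genomic span rather than exon length, were not used. Symbols and exon lengths came from GENCODE v44, and 99.7% of identifiers had a symbol.

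Counts were tested with edgeR 4.0.16 (R 4.3.3; filterByExpr, TMM factors, robust quasi-likelihood F test on all 15 libraries, group as the only term), with Benjamini-Hochberg adjustment over 23711 genes and calls at adjusted p under 0.05. CPM and RPKM used TMM-scaled totals. Errors of log2 fold changes are standard errors. A count of 0 was taken as a limit of 3 counts over the group. The fit was tested first on simulated counts in which few genes changed, equally in both directions and at 1 µM only. That test did not cover shifts as broad as those in these data. Replicates differed by more than counting noise (chi-square per degree of freedom at least 6.49), so none was merged. The labels call replicates biological and do not say that equal numbers belong together. Deviations of same-numbered libraries correlated above 0.1 throughout in 1 of 10 group pairs, 0.25 with 0.5 µM (0.27, 0.27 and 0.58). The main fit did not treat libraries as paired. For that pair of doses a shared replicate effect is therefore not modelled there, and a replicate block was fitted as an alternative.

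Members and lists were chosen with earlier results of these data known. Values in every library were given for the member of each role with the largest change called at 1 µM, that with the highest mean CPM, and those called in opposite directions at 0.15 and 1 µM; every member was accounted for. Alternatives were 3 other scalings, 2 other filters, DESeq2 1.42.0, limma-voom (limma 3.58.1), a fit of the compared libraries only, a replicate block and leaving out each library. Some listed genes are not reported here.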

Additional observations from a re-analysis of the deposited data

Results flagged for a closer look

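RSAD2, CMPK2 and SAMD9L were flagged because they were called in opposite directions at 0.15 and at 1 µM. How many of all genes did so was not counted. The difference between these doses, tested in the same fit, was -4.79 on the log2 scale for RSAD2, -4.57 for CMPK2 and -3.04 for SAMD9L. All 3 libraries at 1 µM lay below all 3 at 0.15 µM for each of these genes.

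The members left out of the test also had reads, most of them at 0.25 µM. At that dose IFI44 had 6 counts over its 3 libraries, IFI44L had 12 and XAF1 had 13, where the untreated libraries had 0, 2 and 0.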

How the results depend on the processing

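Over the 8 comparisons 151 calls of members were made, of which 122 were lost in none of the 23 to 25 alternatives that gave the member a value, and 29 were lost in at least 1. Leaving out 1 library removed or turned 24 of them in at least 1 case. Scaling moved the median log2 fold change of all genes at 0.15 µM from 0.28 to 0.64 under library totals and to 0.54 under TMM limited to genes of at least 10 CPM, and at 1 µM from 0.32 to 0.67 and 0.70.

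When every library had to hold at least 10 counts of a gene, 23 members were tested and the members called higher numbered 11 at 0.15 µM, 8 at 0.5 µM, 7 at 1 µM, 0 from 0.15 to 0.25 µM and 2 from 0.15 to 1 µM, since fewer members were tested. Members called lower at 0.15 µM numbered 2 under library totals and 3 under TMM from genes of at least 10 CPM. From 0.15 to 0.25 µM, 2 members were called higher under library totals, TMM from genes of at least 10 CPM, no filter, DESeq2 or the compared libraries only, and leaving out 1 library gave 0 to 2 higher and 1 to 5 lower. Without replicate 3 at 0.25 and 0.5 µM together, an alternative chosen after seeing the data, 5 were lower in that comparison. From 0.25 to 0.5 µM, 1 was higher under library totals, and leaving out 1 library gave 1 to 3. The cause of these shifts was not tested. With the replicate block 17 members were higher at 0.15 µM and 19 lower from 0.25 to 0.5 µM, as without it, and 13 were higher at 1 µM. Other settings ended the calls of DHX58 (library totals, 1.13) and IFI6 (library totals, 0.72; compared libraries only, 0.87) from 0.25 to 0.5 µM, of MX2 there (compared libraries only, -1.88), and of IFIT3 at 0.15 µM (library totals, -0.65; TMM from genes of at least 10 CPM, -0.74). The block ended the calls of IRF1 at 1 µM, SAMD9 at 0.25 µM and TRIM22 at 0.5 µM.

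The values that changed sign belonged to results that were not called, except BST2 at 0.5 µM. At 0.15 µM under library totals the log2 fold change was 0.0714 for IRF9, 0.0092 for PARP9, 0.0518 for DTX3L, 0.30 for IFI35 and 0.0284 for SP100, and leaving out 1 library gave -0.55 to 0.41 for IRF9 (the highest without untreated replicate 2). IFI35 gave 0.21 under TMM from genes of at least 10 CPM, 0.12 under the strict filter, and -0.39 to 0.12 when 1 library was left out (above 0 without replicate 1 or 2 at 0.15 µM). BST2 gave 0.0224 at 0.5 µM under TMM from genes of at least 10 CPM, and at 1 µM 0.17 under library totals, 0.20 under TMM from genes of at least 10 CPM and 0.0906 under the strict filter. At 1 µM IFIH1 gave -0.05 without untreated replicate 3 and -0.10 without replicate 1, and OAS1 gave -0.56 to 1.62 when 1 library was left out (below 0 without replicate 3). The share of member promoters with the longer motif was 65.5% and with the shorter one 69.0%. Members with few counts, such as OAS1, IFI44, IFI44L and XAF1, are limited by depth.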
